A study of Mus musculus with 9 samples.

Results

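The genes described here encode 8 receptors, membrane or secreted proteins and 1 transcription factor that mark resting microglia, the resident macrophages of brain and spinal cord. They are P2ry12, Gpr34, Cx3cr1, Csf1r, Siglech, Selplg, Tmem119, Olfml3 and Sall1. They were chosen by name as markers of resting microglia, with earlier results of these data known. All 9 were found by gene ID among the 14831 genes of the deposited table. Spinal cord RNA was sequenced from wild-type female C57Bl/6 mice aged 10 weeks, 2 weeks after an injection of 10 µl into the right lateral ventricle. The injection held 500 µg of an antisense oligonucleotide (ASO) directed at mouse C9orf72 (number 571883), the same mass of a control ASO (number 456835), or saline, with 3 libraries for each. An ASO is a short modified strand that binds its matching transcript, and this one lowers C9orf72 RNA. Whether each library is a different mouse is not stated, so that p-values measure the spread between these samples, which may be technical.

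Resting microglia survey the tissue with fine processes and carry a set of receptors used as their markers, not all of them unique to microglia. P2RY12 senses ADP from injured cells, CX3CR1 binds the neuronal chemokine fractalkine, and signals through CSF1R keep microglia alive. SALL1 is a zinc finger transcription factor that maintains the resting state, and many of these transcripts are known to fall when microglia become reactive. In whole tissue, fewer microglia and less RNA per cell cannot be told apart.

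None of the 9 genes passed the threshold in any comparison (Benjamini-Hochberg adjusted p under 0.05 over 14430 genes, limma on log2(RPKM + 0.1), where RPKM is a read count scaled by gene length and library depth). P2ry12 was higher after the C9orf72 ASO, 19.0% above the control ASO and 24.2% above saline, with all of its C9orf72 ASO libraries above the other 6, as for 2.82% of all genes (5.05% lay below). Gpr34 had the largest difference of the 9 from saline, 30.4% above it, and was 14.5% above the control ASO. Selplg ran the other way, 9.1% below the control ASO and 19.6% below saline. The other 6 genes lay between a log2 fold change of 0.05 (Sall1) and 0.12 (Cx3cr1) against the control ASO, and between -0.05 (Csf1r) and 0.15 (Cx3cr1) against saline. Of all genes, 0.0693% were called against the control ASO (0.0347% higher and 0.0347% lower), 0.0693% against saline (0.0347% higher and 0.0347% lower) and 0.00693% for the control ASO against saline.

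The targeted gene checked the labels. C9orf72 was at 2.68, 3.4 and 3.12 RPKM in C9orf72 ASO cords, against 11.17, 11.72 and 10.62 RPKM in control ASO cords and 10.50, 11.38 and 11.48 RPKM in saline cords. It fell by 1.84 on the log2 scale against the control ASO (limma, standard error, SE, 0.08, adjusted p = 1.8e-06). Depth, read from the step between low values, was 90.42 to 123.9 M reads per library. All 9 genes passed the filter on low values and none was near the table's floor, where values under 0.5 RPKM stand at 0.1. The lowest member of each library still rested on 465 to 653 reads per kilobase.

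**Figure D1:**
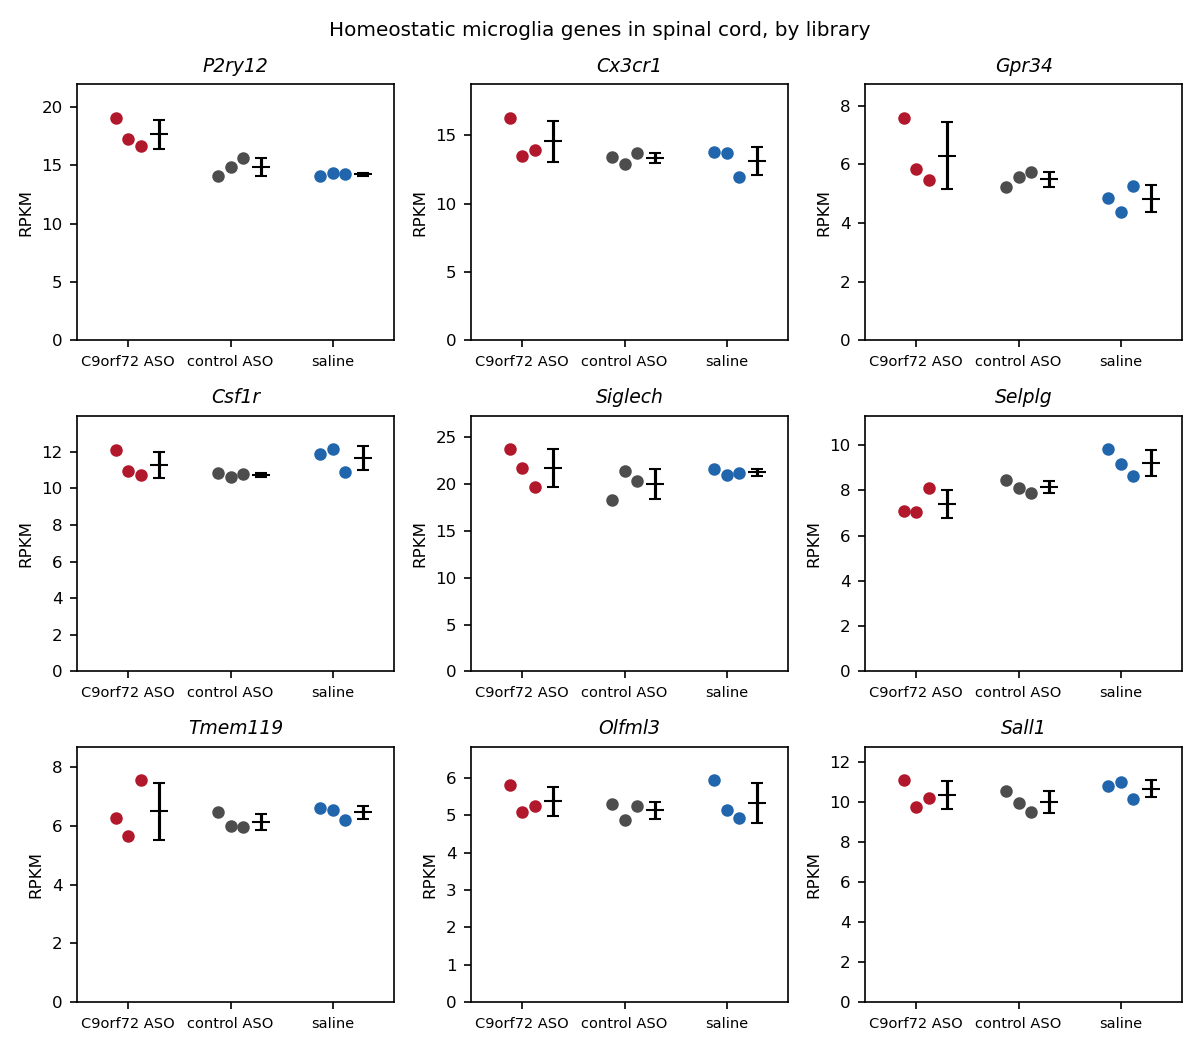
RPKM of each of the 9 genes in each library (points), by group from left to right C9orf72 ASO, control ASO and saline, with mean and SD (bars, n = 3 per group) beside them; axes start at 0. The P2ry12 points after the C9orf72 ASO (16.69 to 19.08 RPKM) lie above the other 6, and those of Selplg after the C9orf72 ASO (7.02 to 8.11 RPKM) lie below saline.

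The receptors for soluble signals were taken first. P2ry12 (ENSMUSG00000036353, chromosome 3, minus strand) had 19.08, 17.30 and 16.69 RPKM in C9orf72 ASO cords, against 14.08, 14.90 and 15.60 RPKM in control ASO cords and 14.09, 14.37 and 14.26 RPKM in saline cords. The saline libraries were nearly level, and the lowest C9orf72 ASO library was above the highest of the other groups. The mean was 17.7 ± 1.24 RPKM in C9orf72 ASO cords, 14.9 ± 0.762 RPKM in control ASO cords and 14.2 ± 0.141 RPKM in saline cords (SD, n = 3 each). The log2 fold change of P2ry12 was 0.25 against the control ASO (limma, SE 0.06, adjusted p = 0.234) and 0.31 against saline (SE 0.06, adjusted p = 0.113). An exact two-sided permutation test of 3 against 3 gave p = 0.1 in both cases, the smallest it can give. Against the mean of both control groups, a comparison added after the data were seen, P2ry12 was at 0.28 (limma, SE 0.055, adjusted p = 0.0733, with 0.173% of genes called).

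Promoter sequence is shown for P2ry12, whose C9orf72 ASO libraries lay above the other 6, for Cx3cr1, the receptor nearest to the mean profile of the 9 genes, and for Siglech, the most abundant of them. Each run is 5′ to 3′ on the gene's strand, from 250 bases before to 50 bases after the annotated start, from RefSeq on GRCm38.p6, which is not the build of the deposited data. The windows are chr3:59262936-59263235 (minus strand), chr9:120068247-120068546 (minus strand) and chr7:55767934-55768233 (plus strand). Capitals mark matches, on either strand, to GAGGAA (a form of the site of the myeloid factor PU.1, not its only form), to GAAA, any 2 bases and GAAA (interferon regulatory factors), or to CTA, any 4 bases and TAG (MEF2 factors, a motif that is its own reverse complement).
P2ry12: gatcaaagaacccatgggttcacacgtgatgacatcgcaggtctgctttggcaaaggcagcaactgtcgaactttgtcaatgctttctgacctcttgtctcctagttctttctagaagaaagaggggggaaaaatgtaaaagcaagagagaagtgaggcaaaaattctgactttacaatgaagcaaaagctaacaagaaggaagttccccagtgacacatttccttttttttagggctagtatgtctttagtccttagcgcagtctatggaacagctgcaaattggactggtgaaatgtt
Cx3cr1: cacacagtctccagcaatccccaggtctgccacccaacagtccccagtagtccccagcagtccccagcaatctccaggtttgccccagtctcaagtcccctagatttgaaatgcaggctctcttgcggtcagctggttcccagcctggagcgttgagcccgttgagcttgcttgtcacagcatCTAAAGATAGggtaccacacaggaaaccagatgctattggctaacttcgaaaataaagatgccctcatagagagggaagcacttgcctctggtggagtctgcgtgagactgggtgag
Siglech: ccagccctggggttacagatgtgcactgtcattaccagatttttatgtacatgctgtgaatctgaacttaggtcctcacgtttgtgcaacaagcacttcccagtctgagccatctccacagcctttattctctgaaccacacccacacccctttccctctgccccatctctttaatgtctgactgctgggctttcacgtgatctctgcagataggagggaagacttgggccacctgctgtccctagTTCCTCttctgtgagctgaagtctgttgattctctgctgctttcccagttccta
Windows were available for 5 of the 9 genes. GAGGAA was found in 1 of them, Siglech, and in 28.3% of 32851 promoter windows of the same length. The MEF2 motif was found in the Cx3cr1 window and in 3.7% of all windows, and the interferon regulatory factor motif in none of the members' windows and in 3.4% of all. A match is a description of the letters in the window, and no match says only that these letters are not in it.

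Gpr34 (ENSMUSG00000040229, chromosome X), a receptor for lysophosphatidylserine, had 7.58, 5.84 and 5.45 RPKM in C9orf72 ASO cords, against 5.21, 5.55 and 5.72 RPKM in control ASO cords and 4.84, 4.36 and 5.27 RPKM in saline cords. C9orf72 ASO replicate 1 stood far above the rest, and the other C9orf72 ASO libraries lay within or next to the control ASO range. The log2 fold change of Gpr34 was 0.18 against the control ASO (limma, SE 0.11, adjusted p = 0.482), with 0.04 when C9orf72 ASO replicate 1 was left out and 0.27 when replicate 3 of that group was. Against saline it was 0.37 (SE 0.11, adjusted p = 0.234), and 0.23 without C9orf72 ASO replicate 1 (0.226, adjusted p = 0.54). The C9orf72 ASO libraries did not overlap with saline.

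Cx3cr1 (ENSMUSG00000052336, chromosome 9) had 16.27, 13.47 and 13.92 RPKM in C9orf72 ASO cords, against 13.39, 12.91 and 13.68 RPKM in control ASO cords and 13.79, 13.67 and 11.92 RPKM in saline cords. Again replicate 1 of the C9orf72 ASO was the highest of all libraries, and the groups overlapped. Its log2 fold change against the control ASO was 0.12 (limma, SE 0.08, adjusted p = 0.504), and 0.04 without that library.

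Csf1r (ENSMUSG00000024621, chromosome 18), the receptor tyrosine kinase for colony stimulating factor 1 and interleukin 34, had 12.09, 10.94 and 10.75 RPKM in C9orf72 ASO cords, against 10.81, 10.59 and 10.77 RPKM in control ASO cords and 11.89, 12.15 and 10.91 RPKM in saline cords. The control ASO libraries all lay below saline, and the C9orf72 ASO libraries overlapped with both other groups. Log2 fold changes were 0.07 against the control ASO (limma, SE 0.06, adjusted p = 0.64), -0.05 against saline (SE 0.06, adjusted p = 0.776) and -0.12 for the control ASO against saline (SE 0.06, adjusted p = 0.794). Without C9orf72 ASO replicate 1 that of Csf1r against the control ASO was 0.02 (0.017).

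Siglech (ENSMUSG00000051504, chromosome 7) encodes a member of the family of sialic acid binding lectins that signals through the TYROBP adaptor. It had 23.73, 21.71 and 19.62 RPKM in C9orf72 ASO cords. Control ASO cords had 18.28, 21.41 and 20.28 RPKM, and saline cords had 21.61, 20.91 and 21.18 RPKM. The C9orf72 ASO values spread over both sides of the saline values. Its log2 fold change was 0.12 against the control ASO (limma, SE 0.08, adjusted p = 0.51) and 0.03 against saline (SE 0.08, adjusted p = 0.911). Against the control ASO it was 0.05 when either C9orf72 ASO replicate 1 (0.049) or control ASO replicate 1 (0.053) was left out, and 0.185 without C9orf72 ASO replicate 3.

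Selplg (ENSMUSG00000048163, chromosome 5), which encodes the selectin ligand PSGL-1 and is also made by blood leukocytes, had 7.09, 7.02 and 8.11 RPKM in C9orf72 ASO cords, against 8.44, 8.08 and 7.90 RPKM in control ASO cords and 9.83, 9.15 and 8.65 RPKM in saline cords. Both ASO groups lay wholly below saline, while the 2 ASO groups overlapped. The mean was 7.40 ± 0.61 RPKM in C9orf72 ASO cords, 8.14 ± 0.276 RPKM in control ASO cords and 9.21 ± 0.59 RPKM in saline cords (SD, n = 3 each). Log2 fold changes of Selplg were -0.14 against the control ASO (limma, SE 0.07, adjusted p = 0.41), -0.31 against saline (SE 0.07, adjusted p = 0.151) and -0.17 for the control ASO against saline (SE 0.07, adjusted p = 0.794). The groups came in the same order, by median, for the summed level of 12 endothelial and mural markers, while the ASO groups overlapped. That sum was 60.5 to 64.0 RPKM in C9orf72 ASO cords and 62.9 to 85.9 RPKM in control ASO cords. In saline cords it was 88.7 to 115 RPKM. The part of these cells in the Selplg values was not tested. Of 12 lymphocyte markers 1 was among the genes used here, Trbc2, at the floor in 6 of 9 libraries.

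Tmem119 (ENSMUSG00000054675, chromosome 5), a membrane protein used as a marker of resident microglia, had 6.26, 5.64 and 7.55 RPKM in C9orf72 ASO cords, against 6.45, 5.99 and 5.96 RPKM in control ASO cords and 6.61, 6.52 and 6.20 RPKM in saline cords. The lowest and the highest of the 9 values both came from the C9orf72 ASO group. Its log2 fold change of 0.07 against the control ASO (limma, SE 0.09, adjusted p = 0.755) turned to -0.05 without C9orf72 ASO replicate 3 (-0.045, adjusted p = 0.8). It was 0.16 when replicate 2 of the same group was omitted, and 0.105 when the first control ASO library was.

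Olfml3 (ENSMUSG00000027848, chromosome 3), a secreted olfactomedin-like protein, had 5.81, 5.07 and 5.24 RPKM in C9orf72 ASO cords, against 5.29, 4.86 and 5.23 RPKM in control ASO cords and 5.94, 5.13 and 4.93 RPKM in saline cords. Its groups overlapped in every pairing (log2 fold change 0.07 against the control ASO in limma, SE 0.08, adjusted p = 0.737). Leaving out C9orf72 ASO replicate 1 gave 0.009 and leaving out replicate 2 of that group gave 0.106, while omitting replicate 2 of the control ASO gave 0.029.

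Sall1 (ENSMUSG00000031665, chromosome 8) had 11.09, 9.74 and 10.17 RPKM in C9orf72 ASO cords, against 10.54, 9.93 and 9.47 RPKM in control ASO cords and 10.79, 11 and 10.16 RPKM in saline cords. No group stood apart (log2 fold change 0.05 against the control ASO in limma, SE 0.07, adjusted p = 0.763). Leaving out replicate 1 or 2 of the C9orf72 ASO gave -0.003 or 0.09, and leaving out replicate 1 or 3 of the control ASO gave 0.088 or 0.012. Per length, its level (mean 10.3 RPKM over the 9 libraries) was above those of the myeloid factors Irf8 (0.97 to 1.35 RPKM) and Spi1 (0.67 to 1.12 RPKM), the gene of PU.1.

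**Figure D2:**
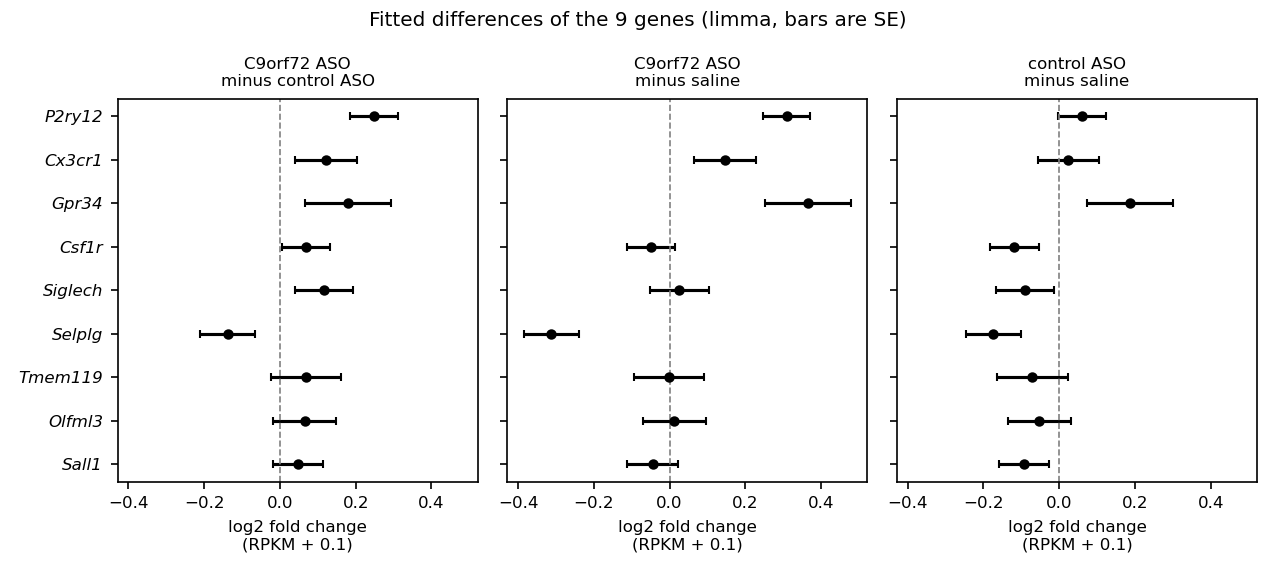
Fitted log2 fold change on the log2(RPKM + 0.1) scale (horizontal axis) of the 9 genes (rows) with SE (bars), for C9orf72 ASO minus control ASO, C9orf72 ASO minus saline and control ASO minus saline. P2ry12 reaches 0.25 and 0.31 in the first 2 panels and Selplg -0.14 and -0.31; no gene passed the adjusted threshold.

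Read as a set, 8 of 9 genes had a log2 fold change above 0 against the control ASO, with a median of 0.07 beside -0.01 over all genes tested. Of all genes tested, 45.8% were above 0. At an unadjusted p under 0.05 lay 1 of the 9 (P2ry12, higher, limma), where 14.1% of all genes did (6.39% higher and 7.71% lower). The C9orf72 ASO and control ASO libraries lay apart, with no overlap, for 1 of the 9, again P2ry12, and for 22% of all genes (10.1% higher and 11.8% lower). Against saline 5 of 9 were above 0, beside 41.3% of all genes, with a median of 0.01 beside -0.03 over all genes. Here P2ry12 and Gpr34 were higher and Selplg lower at an unadjusted p under 0.05, 3 of 9 beside 14% of all genes (3.79% higher and 10.2% lower). The same 3 had libraries that did not overlap with saline, beside 18% of all genes (5.61% higher and 12.4% lower). The control ASO against saline gave 3 of 9 above 0 beside 42.6% of all genes, and a median of -0.07 beside -0.02. There 1 gene, Selplg, was lower at an unadjusted p under 0.05, beside 5.35% of all genes (1.37% higher and 3.98% lower). In that comparison Csf1r and Selplg did not overlap, both lower, 2 of 9 beside 10.3% of all genes (3.16% higher and 7.15% lower). The comparisons share their control libraries and are not independent.

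C9orf72 ASO replicate 1 held the highest of its group's values for 7 of the 9 genes and the highest of all libraries for 5. Its median deviation from the genes' own means was 0.14 on the log2 scale, while the other libraries lay between -0.06 and 0.06. Over all genes tested the same library deviated by -0.01. Between groups the spread was uneven as well. Within the C9orf72 ASO group the coefficient of variation was 18.0% for Gpr34 and 15.1% for Tmem119, and 6.5% for Csf1r. In saline it was 1.0% for P2ry12 and 10.0% for Olfml3.

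The ratio of P2ry12 to Selplg RPKM was 2.69, 2.46 and 2.06 after the C9orf72 ASO, against 1.67, 1.84 and 1.97 after the control ASO and 1.43, 1.57 and 1.65 after saline. All 3 C9orf72 ASO libraries were above the other 6, and the lowest control ASO library (1.67) was just above the highest of saline (1.65). Set against the mean log2 level of the other 8 genes, P2ry12 was at 0.91 ± 0.06 after the C9orf72 ASO, 0.73 ± 0.08 after the control ASO and 0.62 ± 0.06 after saline (SD, n = 3 each, log2). Selplg was at -0.49 ± 0.18 after the C9orf72 ASO, -0.24 ± 0.06 after the control ASO and -0.08 ± 0.05 after saline on the same scale. These ratios were given no test and no share over other genes, since the pair was chosen for its values.

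**Figure D3:**
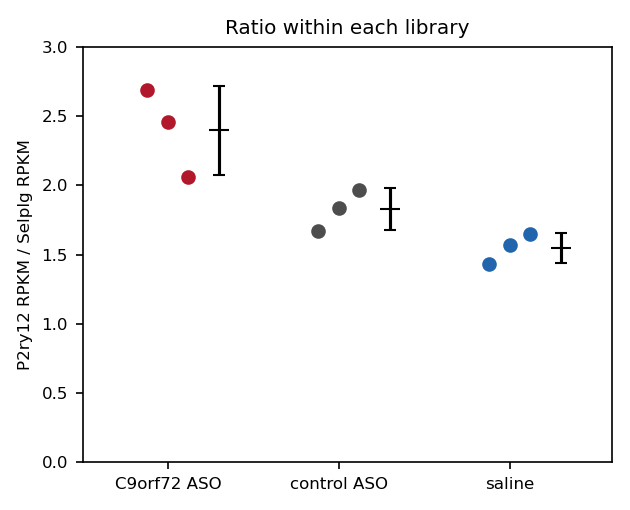
Ratio of P2ry12 to Selplg RPKM within each library (points) for C9orf72 ASO, control ASO and saline, with mean and SD (bars, n = 3 per group). The C9orf72 ASO libraries lie between 2.06 and 2.69 and the other 6 between 1.43 and 1.97.

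In level, per length, the 9 genes ran from Siglech (mean 21.0 RPKM over the 9 libraries) through P2ry12 (15.6 RPKM), Cx3cr1 (13.7 RPKM), Csf1r (11.2 RPKM), Sall1 (10.3 RPKM), Selplg (8.25 RPKM), Tmem119 (6.35 RPKM) and Gpr34 (5.54 RPKM) to Olfml3 (5.28 RPKM). Siglech was above 77.9% of all genes of the table and Olfml3 above 39.7%. The ranges over the 9 libraries overlapped between each gene and the next in this order, for example 18.3 to 23.7 RPKM for Siglech and 14.1 to 19.1 RPKM for P2ry12. Within every single library the order held from Siglech to Tmem119, while Gpr34 changed places with Tmem119 and with Olfml3. Exons of Csf1r overlap those of Hmgxb3 on the opposite strand by 873 bases in the GRCm38 annotation. The libraries kept strand, but whether the counting used it is not given in the sources used here. Hmgxb3 itself averaged 4.85 ± 0.187 RPKM in C9orf72 ASO cords, 5.23 ± 0.343 RPKM in control ASO cords and 5.04 ± 0.339 RPKM in saline cords (SD, n = 3 each). P2ry12 lies on the strand opposite to Med12l and shares 9 exonic bases with it, and Cx3cr1 shares 78 with Gm33858, also on the opposite strand.

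The ligands of these receptors were measured in the same libraries. Csf1, a growth factor for microglia, had 15.23, 12.79 and 14.15 RPKM in C9orf72 ASO cords, against 14.75, 14.15 and 14.53 RPKM in control ASO cords and 16.15, 15.41 and 14.85 RPKM in saline cords, with overlap between the ASO groups (log2 fold change -0.05 against the control ASO in limma, SE 0.07, adjusted p = 0.785). Il34, the other CSF1R ligand, averaged 3.22 ± 0.12 RPKM in C9orf72 ASO cords, 3.22 ± 0.234 RPKM in control ASO cords and 3.59 ± 0.117 RPKM in saline cords (SD, n = 3 each). Both ASO groups lay below all saline libraries for Il34, as the C9orf72 ASO did for 12.4% of all genes and the control ASO for 7.15%. The highest control ASO library for Il34 (3.47 RPKM) was just below the lowest of saline (3.48 RPKM). Cx3cl1, which encodes fractalkine, had 27.40, 27.76 and 28.72 RPKM in C9orf72 ASO cords, against 31.52, 29.78 and 29.31 RPKM in control ASO cords and 31.92, 32.50 and 31.53 RPKM in saline cords. The 3 groups did not overlap, though the highest control ASO library (31.52) was just below the lowest of saline (31.53). The C9orf72 ASO lay wholly below the control ASO for 11.8% of all genes and below saline for 12.4%. Log2 fold changes of Cx3cl1 were -0.11 against the control ASO (limma, SE 0.05, adjusted p = 0.369) and -0.19 against saline (SE 0.05, adjusted p = 0.202). Entpd2, an ectoenzyme that breaks down ATP to ADP, was at -0.22 against the control ASO (limma, SE 0.07, adjusted p = 0.254). Against saline Entpd2 was at -0.075 (SE 0.07, adjusted p = 0.669) and overlapped with it. The control ASO was at 0.14 against saline for Entpd2 (SE 0.07, adjusted p = 0.794). Its libraries lay above saline with no overlap, as for 3.16% of all genes. None of 13 genes of the list of ligands and their processing passed against the control ASO, and its median was -0.05 beside -0.01 over all genes.

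Other genes of microglial identity were read beside the 9. In a list of 30 with 27 tested, none passed against the control ASO in limma, 15 were higher and 1 lower at an unadjusted p under 0.05 (6.39% and 7.71% of all genes), and the median was 0.29. Tyrobp, the adaptor of several myeloid receptors, had 19.28, 21.67 and 21.04 RPKM in C9orf72 ASO cords, against 12.45, 15.37 and 14.29 RPKM in control ASO cords and 14.66, 11.53 and 12.49 RPKM in saline cords. The C9orf72 ASO libraries were above all others, as for 2.82% of all genes. The log2 fold change of Tyrobp was 0.56 against the control ASO (limma, SE 0.10, adjusted p = 0.0905), and it rose against saline (0.68, SE 0.10, adjusted p = 0.031). C1qb, a chain of the first complement component, was at 0.48 against the control ASO (SE 0.08, adjusted p = 0.0905). Named after their values were seen, Fcrls averaged 7.10 ± 0.885 RPKM in C9orf72 ASO cords, 4.72 ± 0.674 RPKM in control ASO cords and 4.55 ± 0.515 RPKM in saline cords (SD, n = 3 each), and its adjusted p against the control ASO was 0.168 in limma. P2ry13, an ADP receptor akin to P2ry12, was at 0.29 against the control ASO (SE 0.13, adjusted p = 0.333) and overlapped with it. Against saline 1 of the 27 genes passed, Tyrobp.

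Genes of activated microglia gave a median of 0.19 against the control ASO over 20 genes, of which none passed, 10 were higher and 1 lower at an unadjusted p under 0.05 (6.39% and 7.71% of all genes). Lyz2, which encodes lysozyme and has the close copy Lyz1, so that its value is uncertain, was at 0.57 against the control ASO (limma, SE 0.14, adjusted p = 0.208) and rose by 1.09 against saline (SE 0.14, adjusted p = 0.0176). The control ASO itself was at 0.52 against saline for Lyz2 (limma, SE 0.14, adjusted p = 0.794). Its libraries lay above saline with no overlap, as for 3.16% of all genes. B2m, the light chain of class I histocompatibility molecules, was at 0.30 against the control ASO (SE 0.075, adjusted p = 0.234). Beside these, 12 transcription factors of microglia had a median of -0.04, with none at an unadjusted p under 0.05 in either direction. Among them Mef2c was at -0.11 (SE 0.07, adjusted p = 0.52). Levels of these 12 genes differed, for example 0.67 to 1.12 RPKM for Spi1 and 38.22 to 46.53 RPKM for Mef2a over all libraries. Which cells of the cord these values came from was not tested. The 15 genes tested of a receptor signalling list, which also holds the receptor genes Tgfbr1 and Tgfbr2, had a median of 0.01. In this list the ubiquitin ligase gene Cbl was at -0.29 (limma, SE 0.12, adjusted p = 0.317) and the phospholipase gene Plcg2 at 0.24 (SE 0.11, adjusted p = 0.354). These genes too were read in whole tissue. Whether these lists differ from the 9 genes was not tested.

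**Figure D4:**
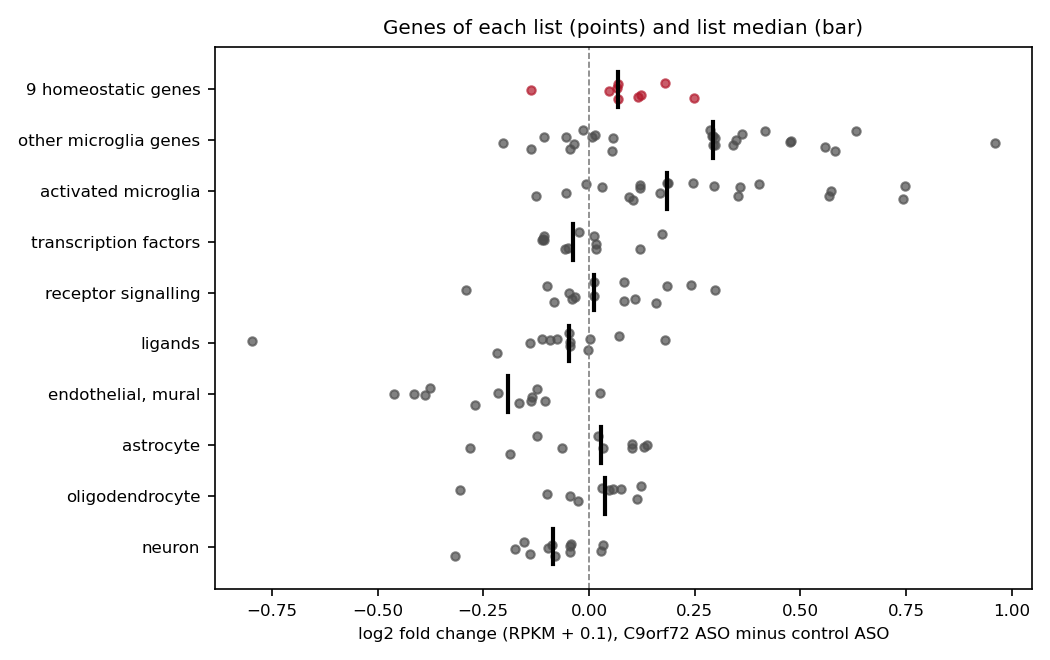
Log2 fold change, C9orf72 ASO minus control ASO, on the log2(RPKM + 0.1) scale (horizontal axis) of each gene (points) in 10 lists (rows), with the list median (bar). The 9 homeostatic genes (red) have a median of 0.07, the other microglia genes 0.29 and the endothelial and mural markers -0.19.

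Markers of other cells were read beside these values. Of 10 markers of macrophages at the borders of the nervous system 1 was among the genes used here, Stab1, at 0.657 to 0.835 RPKM in C9orf72 ASO cords, 0.589 to 0.838 RPKM in control ASO cords and 0.774 to 0.803 RPKM in saline cords. The neutrophil gene S100a9 was at the floor in all C9orf72 ASO and saline libraries. In control ASO cords it was at 3.68, 2.48 and 1.52 RPKM. S100a9 passed the filter on low values only through the control ASO libraries. Its p-value rests on libraries at the floor and is not given. No marker of neurons, astrocytes or oligodendrocytes passed the threshold against the control ASO in limma. Neuron markers had a median of -0.08, with 2 of 12 above 0, Syn1 at -0.32 (SE 0.09, adjusted p = 0.237) and Slc32a1 at -0.175 (SE 0.09, adjusted p = 0.384). Astrocyte markers had a median of 0.03 with 6 of 10 above 0, while the 2 of lowest p were below 0, Gja1 at -0.28 (SE 0.07, adjusted p = 0.234) and Sox9 at -0.12 (SE 0.07, adjusted p = 0.444). Oligodendrocyte markers had a median of 0.04 with 6 of 10 above 0, and the 2 of lowest p lay on either side, Cnp at -0.31 (SE 0.10, adjusted p = 0.257) and Ermn at 0.12 (SE 0.07, adjusted p = 0.419). Endothelial and mural markers had a median of -0.19 against the control ASO and -0.53 against saline. Against saline 11 of 12 were lower at an unadjusted p under 0.05 (10.2% of all genes) and none passed. Rgs5 was at -0.46 against the control ASO (limma, adjusted p = 0.287) and -0.87 against saline (SE 0.17, adjusted p = 0.0996). The control ASO against saline gave these markers a median of -0.31. There 7 of 12 of these markers were lower at an unadjusted p under 0.05 (3.98% of all genes). Their part in the values of the 9 genes was not tested.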

How the data were processed

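Strand-specific libraries were made from total RNA of spinal cord, per the labels' protocols. The submitters' processing notes name cutadapt 1.2.1, GSNAP and the mouse build mm9; which counter and gene models were used is not stated there. The deposited values were taken as RPKM from their behaviour, since the header names no unit, and each value under 0.5 stands at 0.1 in the table the authors deposited. Of 14831 gene IDs 14321 were paired with a symbol.

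A single linear model of all 9 libraries was fitted to log2(RPKM + 0.1) by limma 3.58.1 (R 4.3.3, statmod 1.5.0, mean trend, robust), over the 14430 genes that reached 0.5 RPKM in 3 libraries or more, with Benjamini-Hochberg adjustment over all of them. The pseudocount makes fold changes understate those of low genes. Exact permutation tests used scipy 1.17.1. The depth was the value at which most genes of up to 350 bases gave whole reads, within 0.1 of a read (59.8% to 71.4% of 82 to 114 genes per library). The test was tested on simulated data. Exon lengths and neighbouring genes came from GENCODE M21 on GRCm38. The only coordinates given are those of the RefSeq promoter windows on GRCm38.p6, since the deposited data use another build.

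The members and gene lists were chosen with earlier results of these data known, so that lists get counts and medians and no test. Genes named were the 9 members, C9orf72, Csf1, Il34 and Cx3cl1, and per list those called against the control ASO (up to 4), failing which the 2 genes of lowest p, not all of which are printed. The 8 genes with the profile nearest to the members' mean were named as well. Further genes were named after their values were seen. Replicates were numbered in the order of the samples and pair nothing across groups. Alternatives covered the pseudocount, filter, scaling, transcript length, test setting, samples in the fit, floor values and each library left out. The comparison against both control groups was added after seeing the data.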

Additional observations from a re-analysis of the deposited data

How the results depend on the processing

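No paired analysis was possible because the labels give no replicate numbers. Across up to 20 alternatives per comparison none of the 9 genes passed the threshold in any comparison (smallest adjusted p = 0.0541, for Selplg against saline). The median of the 9 genes stayed between 0.04 and 0.11 against the control ASO (leave-one-out 0.039 to 0.113), between -0.04 and 0.06 against saline and between -0.10 and -0.04 for the control ASO against saline. Against the control ASO the log2 fold change of P2ry12 ran from 0.19 (without C9orf72 ASO replicate 1) to 0.29, and that of Selplg from -0.23 to -0.10. Of 522 recomputed member values 16 changed sign, all of genes near 0. Against saline, Tmem119 was at 0.03 with median log ratio scaling (0.031) and quantile normalization (0.035) and at 0.01 with the length trend removed (0.013), where Sall1 was at 0.000. With 1 library left out, log2 fold changes against the control ASO ran from -0.045 to 0.163 for Tmem119 and from -0.003 to 0.09 for Sall1. Against saline they ran from -0.116 to 0.092 for Tmem119, -0.041 to 0.096 for Siglech and -0.044 to 0.092 for Olfml3. For the control ASO against saline they ran from -0.043 to 0.061 for Cx3cr1 and from -0.106 to 0.026 for Olfml3.

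The number of genes called over the whole table moved more. Against the control ASO it was 10, and 16 without a filter on low values, 19 in limma without trend and robust estimation, 25 against both control groups and 7 to 27 with 1 library left out, the highest without C9orf72 ASO replicate 3. Against saline it was 10, and 25 with the length trend removed, 4 with only the groups compared and 4 to 54 with 1 library left out. Leaving out saline replicate 2 or C9orf72 ASO replicate 1 or 2 gave 4, leaving out control ASO replicate 3 gave 16 and leaving out C9orf72 ASO replicate 3 gave 54. For the control ASO against saline it was 1, and 5 without a filter, 0 with at least 1 RPKM in every library, 2 with the length trend removed, 9 without trend and robust estimation and 0 to 2 with 1 library left out. It was 2 when saline replicate 1 was left out and 0 when any control ASO library was. The cause was not tested. The 9 genes rested on at least 465 reads per kilobase in each library, and 3 libraries per group limit the precision.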

Other observations

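The 8 genes whose profile over the 9 libraries was nearest to the mean profile of the 9 microglia genes were Gas2, Nemp2, Zfp629, Exosc10, Arl5c, Mx2, Wnt4 and Mcm3. Likeness was the root mean square difference between profiles scaled to mean 0 and SD 1, which was 0.20 for Gas2 and 0.38 for Mcm3, with a median of 1.41 over 14421 genes. None of the 8 is in the microglia lists. Members, which are part of that mean, ran from 0.46 for Cx3cr1 and 0.62 for Olfml3 to 1.2 for Tmem119 and 1.56 for Selplg. Among the nearest genes Mx2, an interferon-induced gene, averaged 3.14 RPKM in C9orf72 ASO cords, 2.27 RPKM in control ASO cords and 2.72 RPKM in saline cords. The likeness is a description over 9 libraries and was given no test.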
